A study of Homo sapiens with 54 samples.

Results

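The genes described here are 34 established targets of the transcription factor p53, chosen by name from general knowledge and matched to the expression table by Ensembl gene ID. The choice was made with earlier results of these data known. All 34 were found among the 20056 genes of the table. Expression was measured on 54 arrays of HepG2 cells, a human liver tumour cell line. Cells were exposed for 24 or 48 h to 1 of 7 compounds in 0.5 percent DMSO, or to the solvent alone. Each compound had 3 cultures per time, called biological replicates in the labels, and DMSO had 6 arrays per time from 2 exposures of 3 replicates. The tested compounds were 2-nitrofluorene at 35 µM, the nicotine-derived nitrosamine ketone NNK at 10 mM, 114 µM methapyrilene (as hydrochloride), 45 µM piperonyl butoxide, 95 µM clonidine, nifedipine (420 µM) and tolbutamide (2.1 mM). The first 2 are genotoxic carcinogens, which damage DNA. By general knowledge, methapyrilene and piperonyl butoxide are rodent carcinogens classed as non-genotoxic, and clonidine, nifedipine and tolbutamide are classed as non-carcinogens. The question was how each compound changed the p53 targets against DMSO of the same time, and whether the genotoxic compounds stood apart from the other 5. All groups share 1 tumour line, and each compound was tested at 1 dose.

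p53 is held at a low level in unstressed cells by the ubiquitin ligase MDM2, itself a p53 target, which closes a feedback loop. DNA damage activates kinases that release p53 from MDM2, and p53 then binds response elements near its targets and raises their transcription. The targets described here fall into 6 groups by role. The feedback group has 5 genes (MDM2, PPM1D, TP53INP1, FBXO22 and the long non-coding RNA PURPL), the cell cycle group has 6 (CDKN1A, BTG2, GADD45A, CCNG1, PLK2, PLK3) and the DNA repair group has 5 (DDB2, XPC, POLH, RRM2B, ASCC3). The cell death group has 11 (BAX, BBC3, PMAIP1, FAS, TNFRSF10B, TP53I3, PHLDA3, AEN, TRIAP1, EDA2R, CYFIP2), the metabolism and autophagy group has 5 (SESN1, TIGAR, FDXR, DRAM1, SPATA18), and ZMAT3 and TRIM22 make up the rest.

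A p53 response element is made of 2 half-sites of 10 bases, each with the core NNNCNNGNNN, which reads the same on both strands. Matches were counted over all 10 bases of each half-site and not over the core alone. The MDM2 site below holds both cores and matches at 18 bases. Promoters of RefSeq (GRCh38.p14), each 300 bases from 250 bases before to 50 after a transcription start, were held for 26 of the 34 genes, and the best match to the element with up to 13 bases between half-sites was found in each. All 20 bases of the element matched in DDB2 and PURPL, and in 0.0366 percent of the 27305 genes with a promoter in the table. At least 18 of 20 bases matched in 6 members (AEN, DDB2, FAS, FDXR, MDM2 and PURPL) and in 3.62 percent of all genes. A match is a description of the letters and not a site bound in these cells. The whole promoters of DDB2 (chr11:47214724-47215023, forward strand) and PURPL (chr5:27472042-27472341, forward strand) are shown because the values below turn on both genes. The sites of MDM2 (chr12:68808903-68808962, forward strand, 18 bases matched), FAS (chr10:88991289-88991348, forward strand, 18 bases matched) and PMAIP1 (chr18:59899791-59899850, forward strand, 17 bases matched) are shown with 20 bases on each side, because these genes had some of the larger values under 2-nitrofluorene or NNK. Capitals mark the matched element, and the DDB2 element has 1 spacer base in lower case between its half-sites.
DDB2: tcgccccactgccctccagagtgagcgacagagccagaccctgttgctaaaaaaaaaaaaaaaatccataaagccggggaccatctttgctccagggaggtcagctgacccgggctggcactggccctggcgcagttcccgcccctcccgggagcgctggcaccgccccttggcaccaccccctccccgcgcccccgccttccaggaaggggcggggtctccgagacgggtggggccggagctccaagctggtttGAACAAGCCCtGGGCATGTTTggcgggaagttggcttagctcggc
PURPL: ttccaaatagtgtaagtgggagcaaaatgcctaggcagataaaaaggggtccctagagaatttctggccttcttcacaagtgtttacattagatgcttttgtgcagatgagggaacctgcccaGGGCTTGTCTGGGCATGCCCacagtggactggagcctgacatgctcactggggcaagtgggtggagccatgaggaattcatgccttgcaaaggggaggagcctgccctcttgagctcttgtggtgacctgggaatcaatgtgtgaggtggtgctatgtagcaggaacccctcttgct
MDM2: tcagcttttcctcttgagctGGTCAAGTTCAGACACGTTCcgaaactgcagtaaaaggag
FAS: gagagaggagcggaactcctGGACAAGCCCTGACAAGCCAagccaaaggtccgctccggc
PMAIP1: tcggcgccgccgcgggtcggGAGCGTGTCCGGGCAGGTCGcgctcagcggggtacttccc

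Values are log2 expression made by the authors with RMA, which corrects for background, brings arrays to one distribution and joins the probes of a gene. A difference of 1 is a 2-fold change. Differences of total RNA per cell cannot be seen on this scale, and fewer cells with a transcript and less transcript per cell cannot be told apart. For 4 of the 54 arrays, regression on the mean of all arrays gave slopes under 0.95, against 0.965 to 1.04 for the other 50. These low-spread arrays were piperonyl butoxide at 48 h replicate 1 (0.678), NNK at 24 h replicate 2 (0.798), piperonyl butoxide at 24 h replicate 2 (0.859) and DMSO at 24 h, exposure 2, replicate 2 (0.911). Markers of liver cells were not analysed here, since the table names genes by Ensembl ID alone and the reference used here paired 0 of its IDs with a symbol. Results are given with the low-spread arrays and also without them where a call was lost or a called value moved by over 1.5 times, and calls gained without them are named or counted. Counts from other alternative fits are mostly given without the share of all genes called in that fit, which also moved. Such a changed count is not by itself a result about the members. A gene was called, and is said to have risen or fallen, at an adjusted p under 0.05 from limma over all 20056 genes. Comparisons against DMSO of the same time share the DMSO arrays, and their values stand side by side without a test of their likeness.

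Neither genotoxic compound raised or lowered a p53 target past the threshold at either time. Under 2-nitrofluorene, a nitroarene that forms DNA adducts after reduction of its nitro group, 0 of 34 members were called at 24 h (0.324 percent of all genes were called) and 0 of 34 at 48 h (0.369 percent). The members' median log2 difference was 0.07 at 24 h and 0.04 at 48 h, against -0.02 and -0.01 for all genes. The members' median at 24 h was 0.00417 without the low-spread arrays, against 0.00145 for all genes. Among the members, 3 at 24 h and 2 at 48 h had an unadjusted p under 0.05, as did 3.55 and 3.69 percent of all genes. The 95 percent confidence interval ended below a log2 difference of 1 for 30 members at 24 h and 32 at 48 h. The highest upper bounds were 1.65 for PURPL at 24 h and 1.08 for PMAIP1 at 48 h.

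CDKN1A (ENSG00000124762) encodes p21, the inhibitor of cyclin-dependent kinases that arrests the cell cycle after p53 activation. At 24 h it measured 8.43, 8.22 and 8.36 under 2-nitrofluorene, against a lowest, median and highest value of 7.79, 8.02 and 8.13 in DMSO. All 3 exposed arrays lay above all 6 solvent arrays, yet the fitted difference of 0.35 (SE 0.14, 1.27-fold) had an unadjusted p of 0.0208 and an adjusted p of 0.9998. At 48 h the values were 8.22, 8.40 and 8.58 under 2-nitrofluorene against 7.87, 8.09 and 8.5 in DMSO, with overlap and a difference of 0.25 (SE 0.14). MDM2 (ENSG00000135679) measured 7.06, 7.49 and 7.48 under 2-nitrofluorene at 24 h, against 6.45, 6.99 and 7.24 in DMSO, and the groups overlapped (difference 0.45, SE 0.20). At 48 h MDM2 was 7.15, 7.06 and 7.18 under 2-nitrofluorene against 5.95, 6.58 and 6.93 in DMSO. These groups did not overlap, and the difference of 0.59 (SE 0.20, 1.5-fold) had an unadjusted p of 0.00567 and an adjusted p of 0.5065. Beside DRAM1 at 48 h, an autophagy regulator that lay below all DMSO arrays, these were the only members whose 2-nitrofluorene arrays were separate from DMSO at either time. The share of all genes separated in this way was not counted, so this count is not a result about the members.

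Whether these genes passed depended on the arrays used and their weights. Without the 4 low-spread arrays, 2 members were called under 2-nitrofluorene at 48 h (1.11 percent of all genes), MDM2 at 0.59 (adjusted p = 0.0477) and DRAM1 at -0.45 (adjusted p = 0.00535), and 0 at 24 h. With arrays weighted by their spread, 1 member rose and 1 fell at 24 h (1.67 percent of all genes called) and 2 rose and 1 fell at 48 h (3.29 percent). The estimation of these weights stopped before its convergence tolerance. CDKN1A passed at 24 h (0.33, adjusted p = 0.0329) and 48 h (0.27, adjusted p = 0.0394), and MDM2 at 48 h (0.52, adjusted p = 0.00474). DRAM1 was the member that fell, by 0.42 at 24 h (adjusted p = 0.0126) and 0.45 at 48 h (adjusted p = 0.000828).

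PMAIP1 (ENSG00000141682) encodes NOXA, a BH3-only protein that promotes apoptosis. It had the largest difference of any member under 2-nitrofluorene, with 5.96, 6.36 and 5.64 at 24 h against 4.67, 5.27 and 5.67 in DMSO. The groups overlapped, and the difference of 0.75 (SE 0.34, 1.68-fold) had an adjusted p of 0.9998. At 48 h PMAIP1 measured 6.24, 5.93 and 6.19 under 2-nitrofluorene and 5.40, 5.68 and 6.17 in DMSO, a difference of 0.38 (SE 0.34). PURPL was 7.25, 8.02 and 7.63 under 2-nitrofluorene at 24 h against 4.58, 7.67 and 7.94 in DMSO. The lowest DMSO value came from the low-spread array, and the difference of 0.59 had an SE of 0.53. It was 0.08 (SE 0.36) without the low-spread arrays. FAS, a death receptor, had differences of 0.42 (SE 0.29) at 24 h and 0.35 (SE 0.29) at 48 h, neither past the threshold, and the value at 24 h was 0.27 without the low-spread arrays. The other members of the cell death group ran from -0.18 for BAX, the pore-forming effector, to 0.19 for AEN, an apoptosis-enhancing nuclease, at 24 h. Between these lay BBC3, which encodes PUMA, at -0.14 (-0.0090 without the low-spread arrays) and TNFRSF10B at 0.14.

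NNK occurs in tobacco, and its metabolites alkylate DNA. Under NNK, 0 of 34 members were called at 24 h and 0 of 34 at 48 h, and 0 percent of all genes were called at either time. At an unadjusted p under 0.05, 2 members passed at 24 h and 0 at 48 h, as did 7.14 and 1.46 percent of all genes. The members' median difference was -0.16 at 24 h and -0.02 at 48 h, against 0.04 and 0.02 for all genes. The median at 24 h was 0.01 without the low-spread arrays. The interval ended below 1 for all 34 members at 24 h and for 33 at 48 h, where PURPL reached 1.06. These counts are of the fit with all arrays. PURPL differed by -0.30 (SE 0.53) at 24 h in that fit, and by 0.30 (SE 0.41) without the low-spread arrays.

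CDKN1A measured 8.16, 7.88 and 7.83 under NNK at 24 h and 8.04, 8.36 and 8.22 at 48 h, inside or near the DMSO range given above. Its differences were -0.04 (interval -0.33 to 0.25) and 0.06 (interval -0.23 to 0.35). In this fit neither interval for CDKN1A under NNK went above 0.35 on the log2 scale. MDM2 measured 6.99, 6.26 and 6.99 under NNK at 24 h and 6.64, 6.50 and 6.60 at 48 h, with differences of -0.15 and 0.04 (SE 0.20 each). No member's NNK arrays lay entirely above or below DMSO at either time. How many of all genes did was not counted, and at 24 h both groups held a low-spread array. GADD45A (ENSG00000116717), a stress-induced inhibitor of the G2 to M transition, was 9.81, 9.71 and 10.52 under NNK at 24 h, against 10.05, 10.55 and 11.12 in DMSO. Its difference of -0.51 (SE 0.19) had an unadjusted p of 0.0122 and an adjusted p of 0.642. The value of 9.71 came from the low-spread array, and the GADD45A difference was -0.37 (SE 0.18) without the low-spread arrays. FAS was 6.51, 5.95 and 6.42 under NNK at 48 h against 6.19, 6.94 and 7.16 in DMSO, a difference of -0.50 (SE 0.29) that was not called. RRM2B, a subunit of ribonucleotide reductase that supplies nucleotides for repair, was 9.64, 6.87 and 9.67 under NNK at 24 h, against 7.76, 9.5 and 9.55 in DMSO. Its lowest value in each group came from a low-spread array.

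**Figure D1:**
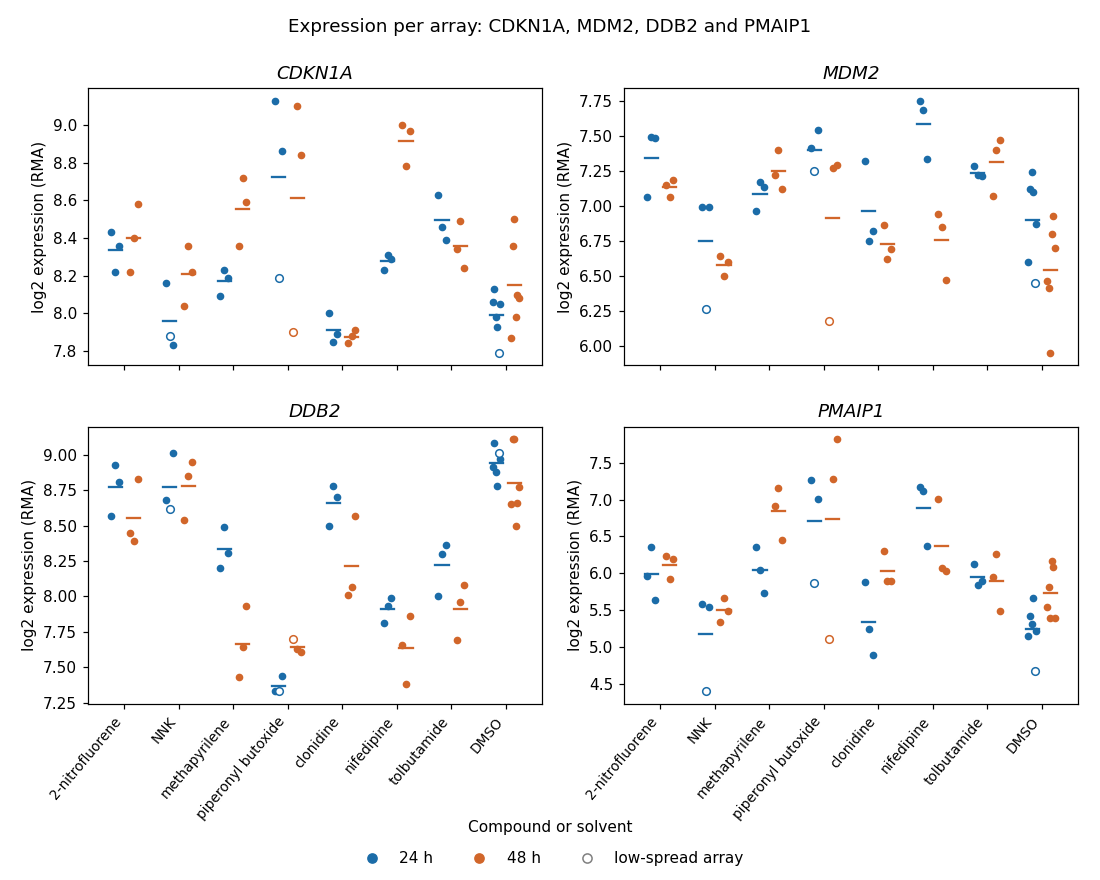
Log2 expression (vertical axis) of CDKN1A, MDM2, DDB2 and PMAIP1 on each array, by compound with DMSO at the right (horizontal axis), at 24 and 48 h. Points are arrays, open points are the 4 low-spread arrays and bars are group means; CDKN1A at 24 h and MDM2 at 48 h lie above all DMSO arrays under 2-nitrofluorene, and DDB2 lies below all DMSO arrays under methapyrilene, piperonyl butoxide, nifedipine and tolbutamide.

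The genotoxic compounds were compared directly at each time. No member differed between 2-nitrofluorene and NNK at 24 h (0 of 34, 0.354 percent of all genes) or at 48 h (0 of 34, 0.214 percent). The median difference over members was 0.29 at 24 h and 0.07 at 48 h, against -0.07 and -0.02 over all genes. Without the low-spread arrays, of which 1 is an NNK array of 24 h, the median at 24 h was 0.00239. CDKN1A differed by 0.38 at 24 h (interval 0.05 to 0.72, unadjusted p = 0.0259, adjusted p = 0.342) and MDM2 by 0.60 (interval 0.13 to 1.07, adjusted p = 0.333). With the low-spread arrays left out MDM2 differed by 0.34 (SE 0.20) and CDKN1A by 0.35 (SE 0.13) at 24 h, and FAS was called at 48 h (0.86 higher under 2-nitrofluorene, adjusted p = 0.0234, 0.778 percent of all genes called). The doses of the compounds differed, so these values compare exposures and not potencies.

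The member that moved in most comparisons was DDB2 (ENSG00000134574), the damaged-DNA binding subunit that starts nucleotide excision repair. It fell in 9 of the 10 comparisons of a non-genotoxic compound with DMSO. The share of all genes that fell in as many was not counted, and comparisons of the same time share their DMSO arrays. At 24 h DDB2 measured 8.20, 8.49 and 8.31 under methapyrilene, 7.33, 7.33 and 7.44 under piperonyl butoxide, 7.81, 7.93 and 7.99 under nifedipine and 8.0, 8.30 and 8.36 under tolbutamide. The DMSO arrays of that time had a lowest, median and highest value of 8.78, 8.94 and 9.08, so none of these 12 arrays reached the solvent range. Clonidine at 24 h overlapped DMSO, with 8.5, 8.78 and 8.70. Under 2-nitrofluorene DDB2 was 8.57, 8.93 and 8.81 and under NNK 8.68, 8.62 and 9.01, both overlapping DMSO. At 48 h it was 7.43, 7.64 and 7.93 under methapyrilene, 7.70, 7.63 and 7.61 under piperonyl butoxide, 7.66, 7.38 and 7.86 under nifedipine and 7.69, 7.96 and 8.08 under tolbutamide. The DMSO values of 48 h were 8.5, 8.72 and 9.11, again above all of these arrays. Clonidine had 8.01, 8.07 and 8.57 at 48 h, 2-nitrofluorene 8.45, 8.39 and 8.83, and NNK 8.54, 8.85 and 8.95.

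DDB2 fell most under piperonyl butoxide at 24 h, by 1.57 (SE 0.10, 2.97-fold lower, adjusted p = 9.89e-15), and by 1.15 at 48 h (adjusted p = 1.44e-11). Under nifedipine, a calcium channel blocker, it fell by 1.03 and 1.17 (adjusted p = 5.67e-09 and 3.42e-10). Under methapyrilene, an antihistamine, it fell by 0.60 and 1.14 (adjusted p = 0.000446 and 6.19e-10), and under tolbutamide, a sulfonylurea, by 0.72 and 0.89 (adjusted p = 2.25e-05 and 2.25e-07). These 8 calls held in every alternative run. Under clonidine, an alpha-2 adrenergic agonist, the difference was -0.28 at 24 h and not called. At 48 h it fell by 0.58 under clonidine (adjusted p = 0.00283), a call that was lost without the replicate block (adjusted p = 0.0782) and without clonidine replicate 2 (-0.52, adjusted p = 0.101). For 2-nitrofluorene the difference was -0.17 at 24 h and -0.25 at 48 h (SE 0.10 each), and for NNK -0.17 and -0.02, none of them called.

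**Figure D2:**
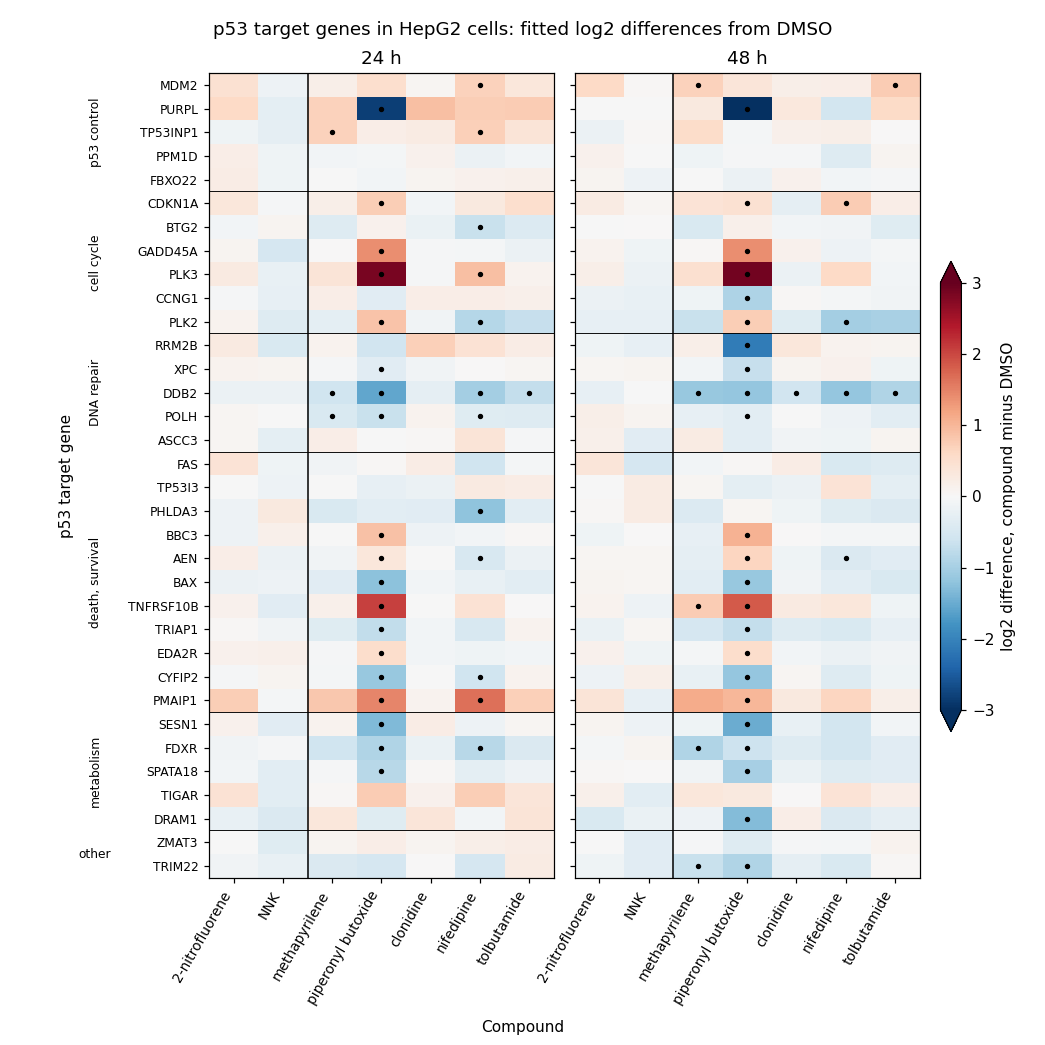
Fitted log2 difference from DMSO of the same time (colour) for each of the 34 p53 targets (rows) under each compound (columns), at 24 and 48 h, with dots at an adjusted p under 0.05. The 2-nitrofluorene and NNK columns hold 0 dots, the piperonyl butoxide columns hold 19 and 23, and the DDB2 row is called in 9 of the other 10 columns.

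Piperonyl butoxide, an inhibitor of cytochrome P450 enzymes used as an insecticide synergist, moved the largest number of members, in both directions. At 24 h, 9 members rose and 10 fell, where 26 percent of all genes were called (10.9 percent rose and 15.1 percent fell). At 48 h, 9 rose and 14 fell, where 58.7 percent of all genes were called (38.1 percent rose and 20.6 percent fell). The members' median was -0.08 at 24 h and -0.24 at 48 h, against 0.10 and 0.21 for all genes, so the median gene lay above 0 at both times. With each array centred on its median, 7 rose and 11 fell at 24 h and 6 rose and 14 fell at 48 h. The 9 members that rose at 24 h also rose at 48 h, the 10 that fell at 24 h also fell at 48 h, and 0 members moved in opposite directions. The share of all genes that kept their call and direction was not counted, so this is not a trait of the members. Each time has 1 low-spread array in its 3 piperonyl butoxide arrays, and without the 4 low-spread arrays 11 rose and 11 fell at 24 h (31.6 percent of all genes called), and 13 rose and 14 fell at 48 h (38.5 percent).

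By role, 4 of 6 cell cycle members and 5 of 11 cell death members rose at each time, and 0 of the feedback, repair and metabolism groups with all arrays in the fit. These counts stand beside the 10.9 and 38.1 percent of all genes that rose, and the roles were not tested against each other. In the cell death group 3 members also fell at each time, which were BAX, CYFIP2 and TRIAP1. PLK3 (ENSG00000173846), a stress-activated polo-like kinase, measured 9.52, 8.15 and 9.58 under piperonyl butoxide at 24 h, against 5.96, 6.23 and 6.58 in DMSO. At 48 h it was 8.0, 9.40 and 10.01 under piperonyl butoxide against 5.88, 6.30 and 6.64 in DMSO, again with no overlap. The rise was 2.86 at 24 h (SE 0.25, 7.26-fold, adjusted p = 9.79e-12) and 2.89 at 48 h (7.39-fold). TNFRSF10B (ENSG00000120889), which encodes the death receptor DR5 for the ligand TRAIL, was 10.41, 10.40 and 10.66 under piperonyl butoxide at 24 h against 8.25, 8.38 and 8.68 in DMSO. At 48 h it was 9.39, 10.87 and 10.80 under piperonyl butoxide against 8.28, 8.58 and 8.75 in DMSO. It rose 4.13-fold and 3.56-fold, with no overlap at either time. GADD45A was 11.96, 11.73 and 12.09 under piperonyl butoxide at 24 h against 10.05, 10.55 and 11.12 in DMSO, and 11.17, 12.52 and 12.66 at 48 h against 10.17, 10.67 and 11.16. It rose 2.64-fold and 2.65-fold, and its lowest array at 48 h, a low-spread one, was just above the highest DMSO array.

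The other rises were smaller than those of PLK3 and TNFRSF10B. PMAIP1 rose by 1.47 at 24 h (SE 0.34) and 1.00 at 48 h, and BBC3 by 0.87 and 1.04 (SE 0.18 each). CDKN1A rose by 0.74 at 24 h (adjusted p = 9.57e-05) and 0.47 at 48 h (adjusted p = 0.00673), with 9.13, 8.19 and 8.86 under piperonyl butoxide at 24 h and 7.90, 9.10 and 8.84 at 48 h. PLK2, a polo-like kinase, rose by 0.85 and 0.74, EDA2R, a receptor of the tumour necrosis factor family, by 0.54 and 0.52, and AEN by 0.34 and 0.63. The rises of PLK3, TNFRSF10B, GADD45A and BBC3 at both times kept their call in every alternative run. At 48 h, the PMAIP1 call was lost without piperonyl butoxide replicate 2 (0.77) or 3 (0.34, adjusted p = 0.391) and the PLK2 call without replicate 2 (0.39) or 3 (0.43), while CDKN1A was 0.25 without replicate 2, and all 3 lost the call with each array centred on its median. The 3 rises at 48 h were larger without the low-spread arrays, at 1.89 for PMAIP1, 1.39 for PLK2 and 0.77 for CDKN1A (adjusted p = 1.14e-08, 2.79e-07 and 7.08e-07). MDM2 had differences of 0.50 at 24 h (adjusted p = 0.0627) and 0.37 at 48 h (adjusted p = 0.104). Without the low-spread arrays MDM2 rose at both times, by 0.50 and 0.76, and TIGAR, a regulator of glycolysis, by 0.75 and 1.06. At 48 h FAS (0.70) and the phosphatase gene PPM1D (0.56) then rose as well.

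Of the repair and metabolism groups, 3 of 5 members each fell under piperonyl butoxide at 24 h and 4 of 5 each at 48 h, where 15.1 and 20.6 percent of all genes fell. PURPL (ENSG00000250337), a p53-induced non-coding RNA reported to restrain p53, measured 3.74, 3.43 and 5.47 under piperonyl butoxide at 24 h, against 4.58, 7.67 and 7.94 in DMSO. One exposed array lay inside the DMSO range, whose lowest value came from the low-spread array. At 48 h PURPL was 3.13, 4.26 and 4.36 under piperonyl butoxide against 6.59, 8.06 and 8.32 in DMSO, with no overlap. It fell by 2.83 at 24 h (SE 0.53, 7.10-fold lower, adjusted p = 4.99e-05), and at 48 h it fell by 3.79 (13.8-fold lower, adjusted p = 2.10e-07). PURPL was called under no other compound.

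**Figure D3:**
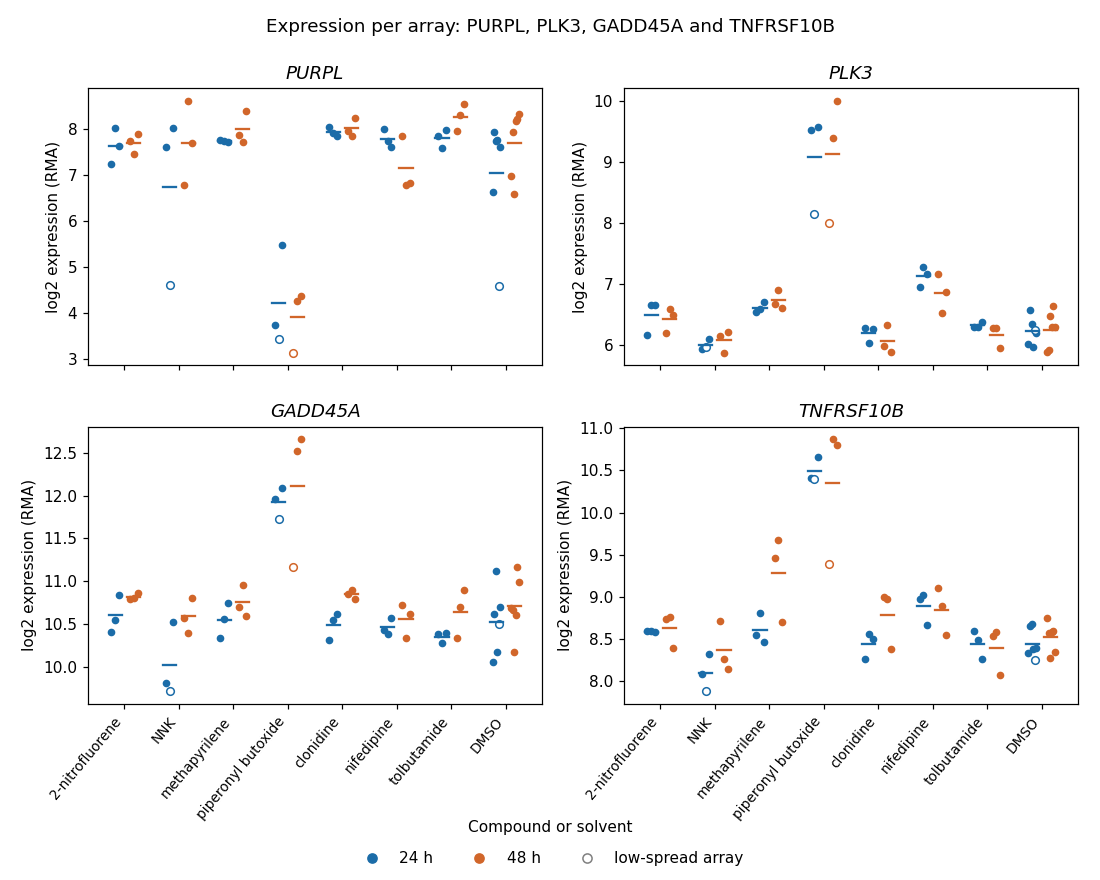
Log2 expression (vertical axis) of PURPL, PLK3, GADD45A and TNFRSF10B on each array, by compound with DMSO at the right (horizontal axis), at 24 and 48 h. Points are arrays, open points are the 4 low-spread arrays and bars are group means; under piperonyl butoxide PURPL is low and the other 3 genes are high at both times.

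Besides PURPL and DDB2, SESN1, a stress-induced antioxidant and regulator of mTORC1, fell by 1.32 and 1.5 (SE 0.28 each). BAX fell by 1.24 and 1.13 and CYFIP2, which encodes a cytoplasmic FMR1-interacting protein linked to apoptosis, by 1.13 and 1.15 (SE 0.15 each). FDXR, the ferredoxin reductase of mitochondria, fell by 0.89 and 0.63, SPATA18, a mediator of mitochondrial quality control, by 0.83 and 0.99, and TRIAP1, an inhibitor of apoptosis, by 0.73 and 0.72. The repair genes POLH, the translesion polymerase eta, and XPC, a damage sensor of nucleotide excision repair, fell by 0.67 and 0.33 at 24 h and by 0.31 and 0.69 at 48 h. RRM2B, DRAM1, the cyclin gene CCNG1 and the antiviral gene TRIM22 were called at 48 h and not at 24 h, with log2 differences of -2.09, -1.29, -0.94 and -0.90. The test of the change at 48 h against the change at 24 h called 0 of 34 members (1.07 percent of all genes), so this does not show a difference between the times. It called 2 members without piperonyl butoxide replicate 2 of 48 h and 1 without replicate 3. RRM2B was 5.41, 9.13 and 8.21 under piperonyl butoxide at 48 h, with the lowest value on the low-spread array. Without the low-spread arrays the falls at 48 h were 1.09 for RRM2B, 0.77 for DRAM1, 0.33 for CCNG1 and 0.38 for TRIAP1 (adjusted p = 0.0309 for TRIAP1), and CCNG1 also fell at 24 h, by 0.29.

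BAX varied with the replicate number. At 24 h all arrays of replicate 3 lay between 5.61 and 6.86, against 7.29 to 8.83 in replicate 1, with DMSO included in both ranges. Within a replicate number, piperonyl butoxide had the lowest BAX value at both times. The BAX falls were lost in a fit without the replicate number as a block.

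Nifedipine moved 12 members at 24 h, of which 4 rose and 8 fell, where 8.18 percent of all genes were called (3.53 percent rose and 4.65 percent fell). PMAIP1 rose most, with 7.17, 7.12 and 6.37 under nifedipine against 4.67, 5.27 and 5.67 in DMSO, and the groups did not overlap. Its rise was 1.65 (SE 0.34, 3.13-fold, adjusted p = 0.0011). PLK3 rose by 0.91, TP53INP1, a stress-induced cofactor of p53, by 0.71, and MDM2 by 0.69 (adjusted p = 0.0238). PHLDA3, an inhibitor of AKT signalling, fell by 1.20, with 6.89, 6.87 and 6.96 under nifedipine against 7.72, 7.87 and 8.87 in DMSO. DDB2 (-1.03), PLK2 (-0.87), FDXR (-0.84), the antiproliferative gene BTG2 (-0.68), CYFIP2 (-0.59), AEN (-0.47) and POLH (-0.37) fell too. Without nifedipine replicate 1 or 2, 4 or 5 of the 34 members were called, and after cyclic loess 6 rose and 7 fell. The shares of all genes called in these fits are not given here. At 48 h, 1 member rose and 3 fell, where 5.79 percent of all genes were called (2.45 percent rose and 3.34 percent fell). The riser was CDKN1A, with 9.0, 8.78 and 8.97 under nifedipine against 7.87, 8.09 and 8.5 in DMSO, a 1.70-fold rise (0.77, SE 0.14, adjusted p = 0.000312) that held in every alternative run. DDB2, PLK2 (-1.02) and AEN (-0.44) fell, while MDM2 differed by 0.21 and was not called. With each array centred on its median, 1 rose and 1 fell at 48 h, and 2 members were called without nifedipine replicate 2. Without the 4 low-spread arrays, 6 rose and 12 fell at 24 h (14.4 percent of all genes called), and 6 rose and 10 fell at 48 h (13.9 percent).

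Methapyrilene moved fewer members. At 24 h, 1 rose and 2 fell, where 1.53 percent of all genes were called (0.623 percent rose and 0.907 percent fell). TP53INP1 rose by 0.68 (adjusted p = 0.0321), and DDB2 and POLH (-0.45) fell. With each array centred on its median, 0 rose and 2 fell. DDB2 alone was called without any 1 methapyrilene array of 24 h or without DMSO exposure 1, replicate 1. At 48 h, 2 rose and 3 fell, where 5 percent of all genes were called (2.36 percent rose and 2.64 percent fell). TNFRSF10B rose by 0.76 (adjusted p = 0.0121) and MDM2 by 0.70 (adjusted p = 0.0292), while DDB2, FDXR (-0.91) and TRIM22 (-0.68) fell. CDKN1A differed by 0.18 at 24 h and 0.41 at 48 h and was not called. Calls other than DDB2 were lost in at least 1 alternative, and after cyclic loess 4 rose and 3 fell at 48 h. The count at 48 h was 2 without methapyrilene replicate 1 or 2, 3 without DMSO exposure 1, replicate 2, and 8 without the low-spread piperonyl butoxide array of 48 h. Without the 4 low-spread arrays, 2 rose and 3 fell at 24 h (3.85 percent of all genes called), and 6 rose and 7 fell at 48 h (12.4 percent), with CDKN1A (0.41) and PMAIP1 (1.10) among the risers.

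Under tolbutamide, DDB2 was the only member called at 24 h (2.02 percent of all genes), and DDB2 and MDM2 were called at 48 h (2.2 percent). MDM2 rose by 0.77 at 48 h (SE 0.20, adjusted p = 0.0265), with 7.07, 7.40 and 7.47 under tolbutamide against 5.95, 6.58 and 6.93 in DMSO, and no overlap. The call was lost when any 1 tolbutamide array of 48 h was left out, and with each array centred on its median, which left DDB2 alone called. At 24 h the count reached 3 without the low-spread piperonyl butoxide array of 48 h or DMSO exposure 1, replicate 3 of 48 h, arrays that enter through the shared estimate of the spread. CDKN1A differed by 0.50 at 24 h (adjusted p = 0.0581) and 0.21 at 48 h. CDKN1A rose at 24 h without the 4 low-spread arrays, by 0.46 (adjusted p = 0.00242), and DDB2, PLK2 (-0.79) and POLH (-0.38) fell, where 5.33 percent of all genes were called. At 48 h 1 member then rose and 3 fell (5.82 percent). Under clonidine 0 members were called at 24 h (0.00499 percent of all genes) and 1 at 48 h (0.384 percent), which was DDB2. CDKN1A differed by -0.08 and -0.27 and MDM2 by 0.06 and 0.18 under clonidine at 24 and 48 h, none of them called.

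CDKN1A and MDM2, the usual reporters of p53 activity, can be set side by side over all compounds. CDKN1A was called under piperonyl butoxide at both times and under nifedipine at 48 h. MDM2 was called under nifedipine at 24 h and under methapyrilene and tolbutamide at 48 h. No compound and time had both called in the fit with all arrays at equal weight. Both rose under piperonyl butoxide at 24 and 48 h and under methapyrilene at 48 h when the low-spread arrays were left out. With arrays weighted by their spread, both also rose under 2-nitrofluorene at 48 h, where 3.29 percent of all genes were called. CDKN1A then rose by 0.27 (adjusted p = 0.0394) and MDM2 by 0.52 (adjusted p = 0.00474). Which members were called under the other compounds with these weights is not given here. Across the 5 non-genotoxic compounds, 27 of the 34 members were called at least once and 7 never (FAS, TP53I3, ZMAT3, TIGAR, PPM1D, FBXO22 and ASCC3), where 66.1 percent of all genes were called at least once over these 10 comparisons. With piperonyl butoxide left out, 15 members and 13.2 percent of all genes were called at least once. AEN and PLK2 rose under piperonyl butoxide and fell under nifedipine, the 2 members called in both directions.

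The genotoxic compounds were then compared as a class, as the mean of 2-nitrofluorene and NNK minus the mean of the other 5 compounds. At 24 h, 5 members were higher and 4 lower, where 5.03 percent of all genes were called (3.14 percent higher and 1.89 percent lower). At 48 h, 6 were higher and 2 lower, where 8.81 percent of all genes were called (6.37 percent higher and 2.44 percent lower). The median over members was 0.06 at 24 h and 0.13 at 48 h, against 0.03 and -0.03 over all genes. In this fit no member was called against DMSO under either genotoxic compound, while members were called under each of the other compounds. How much each side contributed to the class differences was not tested. DDB2 was 0.67 higher at 24 h (SE 0.07, adjusted p = 2.94e-08) and 0.85 higher at 48 h (adjusted p = 4.54e-11). Its 6 genotoxic arrays lay between 8.57 and 9.01 at 24 h and between 8.39 and 8.95 at 48 h, and of the other compounds only clonidine reached into these ranges.

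FDXR was higher in the genotoxic class by 0.53 at 24 h and 0.58 at 48 h (SE 0.13 each), CYFIP2 by 0.36 and 0.38, and POLH by 0.39 and 0.33. At 24 h PHLDA3 was 0.60 higher, and at 48 h BAX was 0.54 and SPATA18 0.43 higher. PLK3 was lower by 0.82 at 24 h and 0.74 at 48 h (SE 0.17 each), and TNFRSF10B by 0.63 at both times (SE 0.13). TP53INP1 (-0.63) and GADD45A (-0.45) were lower at 24 h. CDKN1A differed by -0.17 at 24 h and -0.16 at 48 h, and MDM2 by -0.21 and -0.13, none of them called. Without the low-spread arrays CDKN1A was lower in the genotoxic class at 48 h (-0.22, adjusted p = 0.0157), and MDM2 differed by -0.095 and -0.21, not called. The higher and lower calls split as 5 and 3 at 24 h with each array centred on its median, and as 5 and 5 at both times after cyclic loess. Without the replicate block, 5 members were called at 24 h and 6 at 48 h. Without the 4 low-spread arrays, 8 were higher and 6 lower at 24 h (10.5 percent of all genes called), and 9 higher and 6 lower at 48 h (17.8 percent). Without replicate 1 of 2-nitrofluorene at 24 h, 5 members were called at that time.

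Part of this difference rested on piperonyl butoxide. With it left out of the other compounds, 6 members were called at 24 h (3.13 percent of all genes) and 5 at 48 h (4.2 percent). DDB2 (0.49 and 0.81) and POLH (0.31 and 0.30) were called at both times. PLK3 differed by -0.32 and -0.21 and TNFRSF10B by -0.26 and -0.33, no longer called, and GADD45A differed by -0.15 at 24 h. At 24 h BTG2 (0.42) and PHLDA3 (0.65) were higher and TP53INP1 (-0.70) and DRAM1 (-0.58) lower. At 48 h FDXR (0.56), AEN (0.36) and BAX (0.37) were higher.

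**Figure D4:**
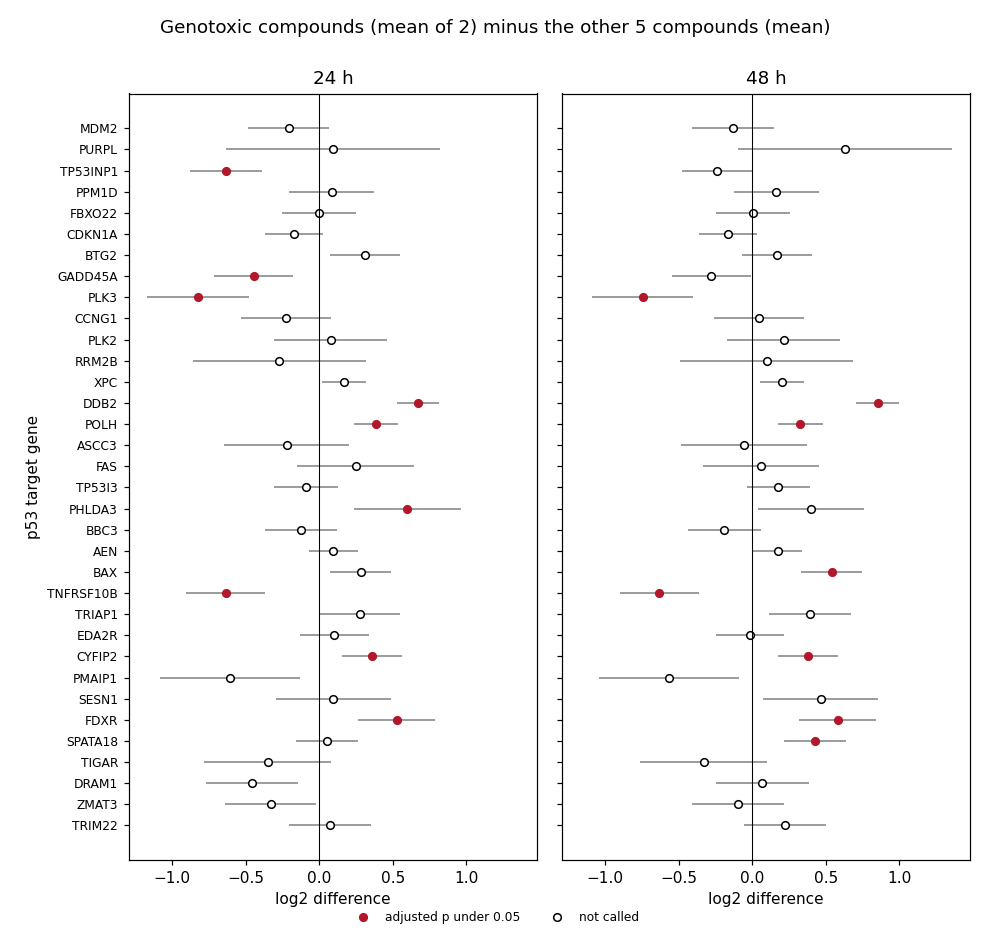
Difference in log2 expression between the mean of the genotoxic compounds and the mean of the other 5 compounds (horizontal axis) for each p53 target (rows), at 24 and 48 h. Points are fitted differences, lines are 95 percent confidence intervals and filled points have an adjusted p under 0.05; DDB2 lies furthest right of the called genes at both times, and PLK3 lies furthest left.

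Each genotoxic compound was also set against the other 5 alone. For 2-nitrofluorene, 3 members were called at 24 h (2.38 percent of all genes), with DDB2 (0.67) and POLH (0.42) higher and TP53INP1 (-0.56) lower. At 48 h 3 were called (3.6 percent), with DDB2 (0.74), BAX (0.55) and POLH (0.38) higher. For NNK, 9 members were called at 24 h (4.48 percent of all genes) and 6 at 48 h (5.83 percent). DDB2 (0.67 and 0.96) and FDXR (0.57 and 0.65) were higher under NNK at both times, and PLK3 (-1.07 and -0.92) and TNFRSF10B (-0.88 and -0.76) lower. At 24 h PHLDA3 (0.82) and POLH (0.35) were higher under NNK and PMAIP1 (-1.01), GADD45A (-0.74) and TP53INP1 (-0.70) lower. At 48 h CYFIP2 (0.53) and BAX (0.53) were higher. With the 4 low-spread arrays left out, 8 members were called for NNK at 24 h (5.74 percent of all genes), of which 5 were among the 9. PHLDA3 (0.38, adjusted p = 0.271), POLH (0.27), TP53INP1 (-0.40) and FDXR (0.64, adjusted p = 0.062) were not called, while CDKN1A (-0.38, adjusted p = 0.0212) was lower and SESN1 (0.52) and TRIAP1 (0.64) higher. The NNK count at 24 h was 2 without replicate 2 of NNK, the low-spread array, and that at 48 h was 1 without replicate 2 of NNK at 48 h. Without the low-spread piperonyl butoxide array of 48 h the counts were 15 and 12 for NNK, and 6 for 2-nitrofluorene at 48 h. The 2-nitrofluorene count was 1 without its replicate 1 or 2 at 24 h, and 1 without its replicate 1 or 3 at 48 h. Without the replicate block, 5 and 3 members were called for NNK and 2 and 1 for 2-nitrofluorene. At 24 h the NNK calls split as 4 higher and 5 lower, but as 2 and 4 with each array centred on its median and as 5 and 4 after cyclic loess. At 48 h they split as 4 and 2, but as 3 and 5 after cyclic loess. The 2-nitrofluorene calls split as 2 higher and 1 lower at 24 h, as 2 and 0 with centring and as 2 and 2 after cyclic loess, and at 48 h as 3 and 0, or 3 and 1 after cyclic loess.

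Time made no called difference. The change at 48 h minus the change at 24 h called 0 of 34 members for 2-nitrofluorene (0 percent of all genes), NNK (0 percent), methapyrilene (0.0897 percent), clonidine (0.00499 percent), nifedipine (0.0399 percent) and tolbutamide (0.0299 percent). For piperonyl butoxide the largest such differences were RRM2B (-1.51, adjusted p = 0.256), PURPL (-0.96, adjusted p = 0.557) and DRAM1 (-0.93, adjusted p = 0.173). For 2-nitrofluorene the difference between times was -0.10 for CDKN1A (interval -0.51 to 0.31) and 0.14 for MDM2 (interval -0.43 to 0.72). Without the low-spread arrays, TNFRSF10B rose more under methapyrilene at 48 h than at 24 h (0.66, adjusted p = 0.0319). In DMSO alone, 0 of 34 members differed between 48 h and 24 h (0.0249 percent of all genes). The smallest p among the members there was that of TP53INP1, which was 0.49 higher at 48 h (SE 0.13, unadjusted p = 0.007, adjusted p = 0.475).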

How the data were processed

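RNA of HepG2 cultures was hybridised to single-channel Affymetrix arrays, per the labels' protocols. The deposited table holds log2 values that the authors made with RMA, per the submitters' processing notes. The RMA version and the definition of the probe sets: not given in the sources used here. In all there were 20056 rows for 54 arrays, with 0 values missing. No counts underlie these values, so the number of arrays limits precision. Compound and time, from the labels, defined the groups. Each compound array has DMSO arrays named as its matching controls, which carry the time and replicate number of that array, and the number within a time was therefore fitted as a fixed block. As a check of the pairing, deviations from group means were correlated between arrays of a number. The mean correlation was 0.242 at 24 h and 0.205 at 48 h, and it exceeded 0.1 in 76 and 73 of 105 pairs. The block was kept for the labels, since not every pair correlated.

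No filter was applied. limma 3.58.1 in R 4.3.3 fitted all arrays together (lmFit, then eBayes, two-sided tests), with 16 groups, the block and 34 degrees of freedom left for the residual spread. P-values were adjusted by Benjamini-Hochberg over all rows within each contrast and called at an adjusted p under 0.05. DMSO at 48 h and 24 h were compared after the 2 exposures of a number were averaged. P-values measure the spread between the labelled biological replicates. The fit was also run on simulated data with noise of the same size on every array. These data held no low-spread arrays, so the run does not bear on calls that turned on those arrays. The members, their roles and the gene lists were chosen with earlier results of these data known. Which compounds are genotoxic follows general knowledge and is not in the labels.

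The naming rule counts every member in every contrast and names CDKN1A, MDM2 and up to 8 called members in each direction, largest first. Per-array values are given for the members that changed most under 2-nitrofluorene or NNK, and DDB2, BAX and others were added after their values were seen. Symbols of the 34 members came with their Ensembl IDs. Further lists (p53 regulators, other targets, repressed cell cycle genes, cell type markers) were not run, because the reference paired 0 of the 20056 IDs with a symbol. Response elements were searched in RefSeq promoters (GRCh38.p14). Alternatives were a fit without the block, a fit of each time alone, leaving out the 4 low-spread arrays, 1 DMSO exposure, array centring, cyclic loess, a filter on low values, trend and robust moderation, array weights, leaving out each array, and the class contrast without piperonyl butoxide.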

Additional observations from a re-analysis of the deposited data

Results flagged for a closer look

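In 5 of 68 sets of 6 DMSO arrays (34 genes at each time), 1 array stood further from the nearest other than Dixon's 95 percent critical value allows, and chance gives about 1 in 20 such sets. For 4 of them, all at 24 h, the array was exposure 2, replicate 2, a low-spread array. RRM2B measured 7.76 there, with the other 5 arrays between 9.30 and 9.55. TP53INP1 measured 7.00, with the others between 7.63 and 7.97. CCNG1 measured 11.89, with the others between 12.32 and 12.52, and ASCC3 measured 6.43, with the others between 7.32 and 7.58. The part of the low slope of this array in these values was not tested. The other was POLH at 48 h, where exposure 1, replicate 3 measured 5.58 and the others lay between 6.01 and 6.19, an array with a slope in the range of the other 50.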

How the results depend on the processing

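Counts below are members called of 34, with the count of the fit described above in brackets. The share of all genes called also moved between alternatives. With array weights it was 1.67 percent for 2-nitrofluorene at 24 h and 3.29 percent at 48 h. It is not repeated beside each count below, so a changed count is not by itself a result about the members. Without the replicate block they were 1 (3) for methapyrilene at 24 h, 0 (1) for clonidine at 48 h, 2 (4) for nifedipine at 48 h, 5 (9) for the genotoxic class and 5 (9) for NNK against the other 5 at 24 h, and 1 (3) for 2-nitrofluorene and 3 (6) for NNK against the other 5 at 48 h; the block changed no other count by over 1.5 times. In a fit of the same time alone they were 3 (1) for tolbutamide at 24 h, and 3 (5), 0 (1) and 1 (2) for methapyrilene, clonidine and tolbutamide at 48 h. Without the 4 low-spread arrays they were 5 (3) for methapyrilene, 4 (1) for tolbutamide, 14 (9) for the class and 6 (3) for 2-nitrofluorene against the other 5 at 24 h. At 48 h they were then 2 (0) for 2-nitrofluorene, 13 (5) for methapyrilene, 16 (4) for nifedipine, 4 (2) for tolbutamide, 15 (8) for the class, 7 (3) and 18 (6) for 2-nitrofluorene and NNK against the other 5, 1 (0) for 2-nitrofluorene against NNK and 1 (0) for the time difference of methapyrilene. With DMSO exposure 1 alone they were 1 (3) for methapyrilene and 6 (12) for nifedipine at 24 h and 3 (5) for methapyrilene at 48 h. With exposure 2 alone they were 1 (3) for methapyrilene at 24 h, and 1 (5), 0 (1), 2 (4) and 1 (2) for methapyrilene, clonidine, nifedipine and tolbutamide at 48 h. Array centring gave 3 (5), 2 (4) and 1 (2) for methapyrilene, nifedipine and tolbutamide at 48 h, and cyclic loess gave 2 (1) for tolbutamide at 24 h and 1 (0) for the time difference of piperonyl butoxide. Array weights, whose estimation stopped before its convergence tolerance, gave at 24 h 2 (0) for 2-nitrofluorene, 8 (3), 21 (12) and 10 (1) for methapyrilene, nifedipine and tolbutamide, and 14 (3) and 5 (9) for 2-nitrofluorene and NNK against the other 5. At 48 h they gave 3 (0) for 2-nitrofluorene, 14 (5), 2 (1), 16 (4) and 9 (2) for methapyrilene, clonidine, nifedipine and tolbutamide, 20 (8) for the class, 16 (3) and 19 (6) for 2-nitrofluorene and NNK against the other 5, 4 (0) for 2-nitrofluorene against NNK, and 2, 5 and 4 (0 each) for the time differences of methapyrilene, piperonyl butoxide and nifedipine. The class at 48 h had 5 (8) without piperonyl butoxide. The filter kept 15042 rows with all 34 members and moved no count by over 1.5 times, nor did trend and robust moderation. Leaving out each array in turn gave 1 to 4 for methapyrilene, 16 to 22 for piperonyl butoxide, 4 to 14 for nifedipine, 1 to 3 for tolbutamide, 5 to 11 for the class, 1 to 4 for 2-nitrofluorene and 2 to 15 for NNK against the other 5 at 24 h. At 48 h it gave 2 to 8, 19 to 25, 0 to 1, 2 to 5 and 1 to 3 for methapyrilene, piperonyl butoxide, clonidine, nifedipine and tolbutamide, 7 to 12 for the class, and 1 to 6 and 1 to 12 for 2-nitrofluorene and NNK against the other 5. It gave 0 to 2 for the time difference of piperonyl butoxide and 0 for every other comparison with a count of 0. No called member changed sign in any alternative. Uncalled values near 0 did. CDKN1A under NNK at 24 h (-0.04) became 0.028 with exposure 2 and 0.10 with cyclic loess, and ran from -0.10 to 0.033 over the fits without 1 array; at 48 h (0.06) it became -0.038 with exposure 1. MDM2 under NNK at 24 h (-0.15) became 0.014 without the low-spread arrays and ran from -0.27 to 0.075 without 1 array. At 48 h (0.04) it became -0.23 with exposure 2 and ran from -0.083 to 0.13. For 2-nitrofluorene against the other 5 at 24 h, CDKN1A became -0.033 without the low-spread arrays, -0.036 with cyclic loess and -0.022 with array weights, and ran from -0.030 to 0.055 without 1 array, and MDM2 ran from -0.040 to 0.27. The causes were not tested.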
